A study of Homo sapiens with 11 samples.

Results

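A pair of small interfering RNAs (siRNAs) against the same transcript, nemo-like kinase (NLK), was compared, type 2 against type 1, in 2 human breast cancer cell lines. The comparison used 4 of the 11 libraries of the study, namely siRNA type 2 and siRNA type 1 in BT483 and siRNA type 2 and siRNA type 1 in T47D-TamR, chosen by their sample titles. BT483 is an estrogen receptor positive line from a ductal carcinoma, and T47D-TamR is a derivative of the luminal line T47D that was passaged in tamoxifen until resistant and is kept in it. Each culture had been deprived of estrogen for 48 h and was transfected for 72 h at 10 nM with an NLK siRNA. A control culture of each line received a pool of non-targeting siRNAs in the same way. The remaining libraries, which entered only the estimate of the spread, were control siRNA with 0.5 µM tamoxifen in each line and, in T47D-TamR without siRNA, 0.5 µM VX-702, DMSO, and DMSO with 0.5 µM tamoxifen. Each group held 1 library, so the 2 lines served as the replicates, and the labels do not say how many dishes or passages stood behind a library.

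NLK belongs to the wider MAP kinase family and phosphorylates transcription factors of the Wnt, Notch and FOXO pathways. An siRNA is a short duplex, 1 strand of which (the guide) is loaded into an Argonaute protein and directs the cleavage of an mRNA that pairs with it over its whole length. Like a microRNA, a guide can also lower other mRNAs that pair only with its seed, the bases near its 5′ end, most often through sites in the 3′ untranslated region (3′ UTR). Double-stranded RNA can in addition be read by cytosolic sensors such as RIG-I and MDA5 and by TLR3 in endosomes, which induce interferons and, in turn, interferon-stimulated genes.

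The siRNAs are shown because their seeds define the gene groups used further on. The sense strands are those of the study's protocol, and the guides are their reverse complements. Capitals mark the seed in the guide (bases 2 to 8 from its 5′ end) and the bases of the sense strand that pair with it.
siRNA 2, sense: gagcugaauuuGAAGACUa
siRNA 2, guide: uAGUCUUCaaauucagcuc
siRNA 1, sense: gucaguaacagAUCCAAGa
siRNA 1, guide: uCUUGGAUcuguuacugac
On GRCh38, siRNA 2 matched the 3′ UTR of NLK in exon 11 of 11 (chr17:28196045-28196063, plus strand), and siRNA 1 matched its coding sequence in exon 2 (chr17:28122603-28122621, plus strand). A 7-base seed site was GAAGACU for siRNA 2 and AUCCAAG for siRNA 1, read on the mRNA strand, and an 8-base site was GAAGACUA or AUCCAAGA. The samples are named type 2 and type 1 and the protocol numbers its siRNAs, and the match between these names rests on the shared numbers. The protocol lists siRNA 1 from a pair of suppliers, and which of these was used in these cultures is not stated.

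Total counts were 25728513 with type 2 and 14637083 with type 1 in BT483, the lowest of the series, and 23716207 with type 2 and 26442260 with type 1 in T47D-TamR. Levels are given as CPM, counts scaled to the size of the library, and a floor of 3 counts was worth 0.113 to 0.205 CPM in these 4 libraries. Both lines held their luminal markers, whose summed level was 12825 CPM with type 2 and 12303 CPM with type 1 in BT483 and 5515 and 4986 CPM in T47D-TamR. The leukocyte markers PTPRC, CD3E, CD14, CD68 and MS4A1 summed to at most 0.521 CPM in these 4 libraries, with CD3E and MS4A1 at 0.

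NLK itself stood below control siRNA with both siRNAs, and the siRNAs did not pass the test against each other. In BT483 NLK stood at 5.41 CPM with type 2, against 8.52 CPM with type 1 and 30.0 CPM with control siRNA. In T47D-TamR NLK stood at 12.2 CPM with type 2, against 10.3 CPM with type 1 and 29.3 CPM with control siRNA. All 4 knockdown libraries lay below the control siRNA libraries, while type 2 was the lower one in BT483 and the higher one in T47D-TamR. The level with type 2 was 63.6% of that with type 1 in BT483 (exact 95% interval of the counts 49.9 to 81.0) and 118% in T47D-TamR (99.2 to 140.2), where the intervals cover counting error only. Over both lines the log2 fold change of NLK, type 2 minus type 1, was -0.14 (SE 0.28, adjusted p = 0.94, edgeR).

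Across the transcriptome the siRNAs differed in 113 of 24023 genes tested by edgeR's quasi-likelihood test at an adjusted p under 0.05 (called genes, 0.47% of those tested). Of these, 48 genes were higher with type 2 (0.2% of the genes tested) and 65 were lower with type 2 (0.271%), and 2191 genes had an unadjusted p under 0.05. The 48 higher genes moved the same way in both lines, as did 64 of the 65 lower ones. The lines were the replicates of the test, so a call itself favours genes that moved alike. Over all 24023 genes tested, 6364 were higher in both lines and 5754 lower in both. The exception was GTSF1, named after its values were seen, which had 0 counts in both BT483 libraries and 75.6 CPM with type 2 against 187 CPM with type 1 in T47D-TamR. The called counts depended on the fit. DESeq2 called 157 genes higher and 188 lower, a fit of the 4 libraries alone 256 and 230, and limma on the deposited log2 values 0 and 0 (1174 and 1118 at an unadjusted p under 0.05). No gene stayed called on leaving out either type 1 library. The type 1 term then rested on the other line alone, while the type 2 term still drew on both lines. Without BT483 type 2 the counts were 11 and 47, and without T47D-TamR type 2 they were 82 and 17.

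Within each line, 1 library against 1 with no test, BT483 had 196 genes past 2-fold higher with type 2 (1.61% of 12165 genes averaging at least 5 CPM) and 110 past 2-fold lower (0.904%). T47D-TamR had 85 past 2-fold higher (0.723% of 11749 genes) and 249 past 2-fold lower (2.12%). Over 10720 genes at that level in both lines, 26 were past 2-fold higher in both, 23 past 2-fold lower in both, and 17 past 2-fold in opposite directions. As a description across genes, which are not independent replicates, the differences of the 2 lines had a Pearson correlation of 0.232 and a Spearman correlation of 0.211.

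**Figure D1:**
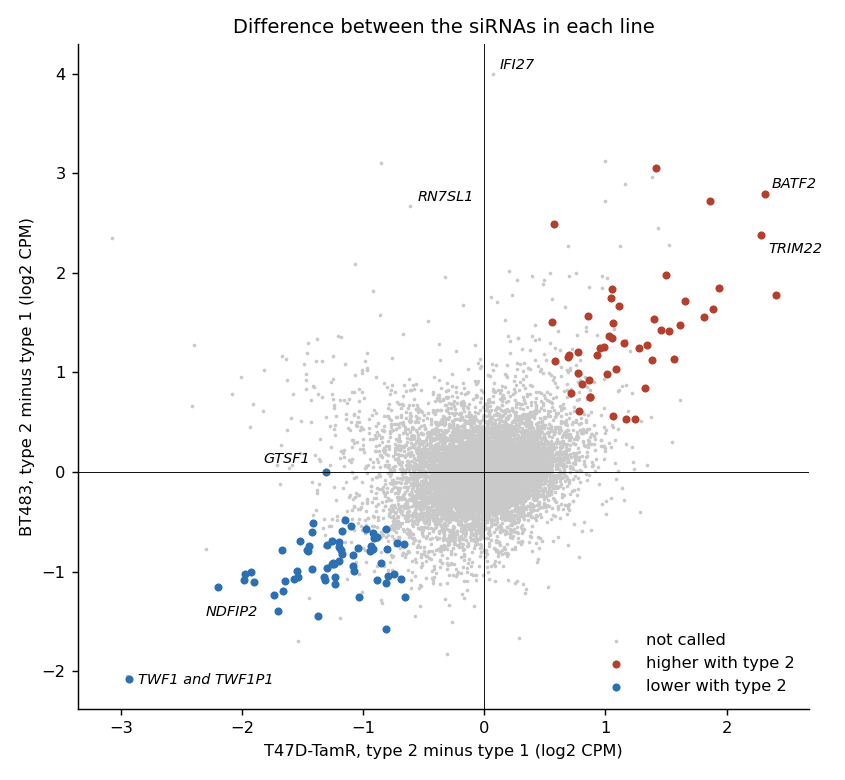
Each point is a gene, placed by its log2 CPM difference, type 2 minus type 1, in T47D-TamR (x axis) and BT483 (y axis). Grey points are genes averaging at least 5 CPM in both lines that were not called, red points the 48 called higher with type 2 and blue points the 65 called lower; the red points lie in the upper right and the blue ones in the lower left except GTSF1, and IFI27 stands high in BT483 alone.

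The genes lower with type 2 were lower against control siRNA as well. In 64 of the 65, both type 2 libraries lay below the control siRNA library of their line, and in 8 of the 65 both type 1 libraries did. The median log2 difference from control siRNA of the 65 genes was -0.85 with type 2 and 0.053 with type 1 in BT483, and -1.07 with type 2 and 0.13 with type 1 in T47D-TamR. Over all genes tested these medians were 0.0 with either siRNA in BT483, and 0.018 with type 2 and 0.012 with type 1 in T47D-TamR. The calls were made on type 2 against type 1, so these counts and medians describe the called genes. The same counts over all genes are not reported here. By GENCODE annotation 59 of the 65 were protein coding and 6 were processed pseudogenes.

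NDFIP2, an adaptor that recruits NEDD4-family ubiquitin ligases, had 15.4 CPM with type 2, against 40.7 CPM with type 1 and 39.6 CPM with control siRNA in BT483. In T47D-TamR NDFIP2 had 10.9 CPM with type 2, against 35.8 CPM with type 1 and 36.2 CPM with control siRNA. The type 2 libraries lay below all the others and type 1 matched control siRNA closely (log2 fold change -1.55, SE 0.16, adjusted p = 0.00287, edgeR). VASP, an actin filament elongation factor, had 44.9 CPM with type 2, against 96.0 CPM with type 1 and 87.9 CPM with control siRNA in BT483. In T47D-TamR VASP had 41.2 CPM with type 2, against 129 CPM with type 1 and 92.9 CPM with control siRNA. The type 2 libraries did not overlap the type 1 libraries (-1.37, SE 0.16, adjusted p = 0.00421, edgeR). ARL1, a small GTPase of the Golgi, had 48.3 CPM with type 2, against 98.5 CPM with type 1 and 94.7 CPM with control siRNA in BT483. In T47D-TamR ARL1 had 34.9 CPM with type 2, against 138 CPM with type 1 and 129 CPM with control siRNA. Both type 2 libraries again stood apart from the rest (-1.49, SE 0.21, adjusted p = 0.00748, edgeR).

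Other genes lower with type 2 than with type 1 belonged to varied processes, and their falls are given against type 1. DRAM2, a lysosomal membrane protein linked to autophagy, fell by 1.49 on the log2 scale, and the peroxisomal tether ACBD5 fell by 1.42. The trimeric intracellular cation channel TMEM38B fell by 1.60, the chemokine-like factor family member CMTM8 by 1.61 and the lysosomal carrier SLC46A3 by 1.33. For CMTM8 type 1 stood above control siRNA in both lines. Its log2 differences from control siRNA were -0.40 with type 2 and 0.76 with type 1 in BT483. In T47D-TamR they were -1.62 with type 2 and 0.58 with type 1. ODC1, ornithine decarboxylase of polyamine synthesis, fell by 1.41. In BT483 ODC1 had 8.09 CPM with type 2 and 22.2 CPM with type 1, and in T47D-TamR 126 CPM with type 2 and 326 CPM with type 1, so the lines differed in level while the siRNA difference was alike. POC1B, a centriole protein, fell by 1.30, C4orf46 by 1.28 and PA2G4, an ERBB3-binding regulator of growth, by 1.22. These 9 genes had adjusted p-values between 0.00631 and 0.0456 (edgeR).

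The largest drop of a called gene by the naming rule was at TWF1P1, a processed pseudogene on chromosome 17, which fell by 2.48 on the log2 scale (SE 0.29, adjusted p = 0.00748, edgeR). TWF1P1 had 11.4 CPM with type 2, against 48.2 CPM with type 1 in BT483, and 6.95 CPM with type 2, against 53.7 CPM with type 1 in T47D-TamR. TWF1, the parent gene that encodes the actin monomer binding protein twinfilin 1, had 20.2 CPM with type 2, against 84.0 CPM with type 1 in BT483, and 13.4 CPM with type 2, against 104.1 CPM with type 1 in T47D-TamR. Its log2 fold change was also -2.48 (SE 0.38), at an adjusted p of 0.0711 (edgeR), so TWF1 missed the threshold. Reads of such copies cannot be told apart with certainty, since the sources used here do not give how reads with several matches were counted. The same holds for AL358942.1 (-1.55) and AL354714.2 (-1.44), 2 further processed pseudogenes among the 15 lowest genes.

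**Figure D2:**
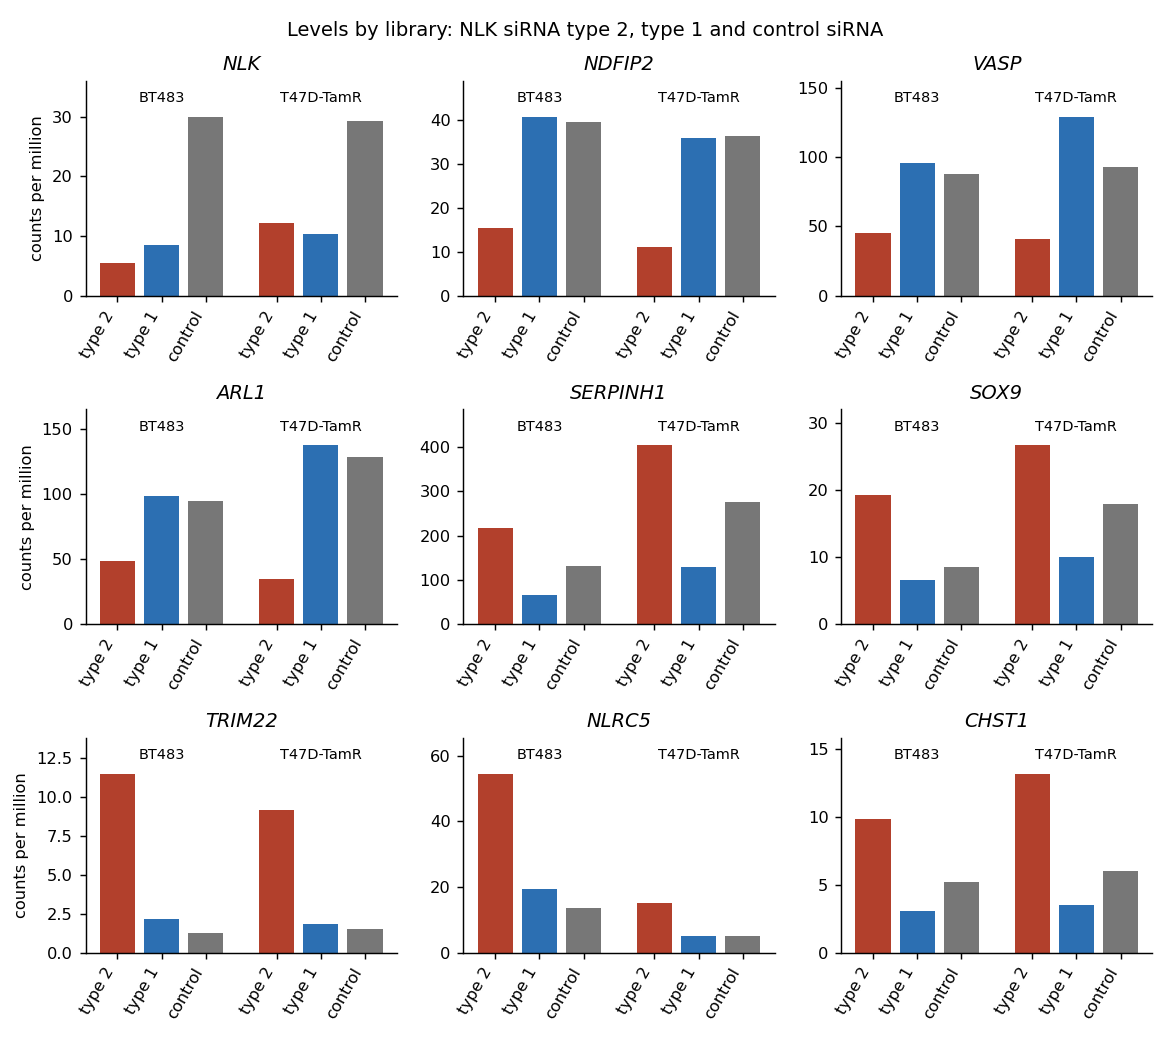
Bars give CPM of 9 genes in single libraries, type 2, type 1 and control siRNA from left to right within BT483 and then T47D-TamR; no bar has an error because each group held 1 library. NLK is low with both siRNAs, and NDFIP2, VASP and ARL1 are low with type 2. SERPINH1, SOX9 and CHST1 are high with type 2 and below control with type 1, and TRIM22 and NLRC5 are high with type 2.

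Most genes lower with type 2 carried the seed site of siRNA 2. Of the 59 lower genes with an annotated 3′ UTR, 47 (79.7%) held GAAGACU there, against 1827 of the 14889 tested genes with a 3′ UTR (12.3%). The 8-base site was in 21 of the 59 (35.6%), against 2.44% of all tested genes with a 3′ UTR. With the coding sequence searched as well, 55 of the 59 held the site (93.2%), against 27.8% of all. The seed site of siRNA 1, AUCCAAG, was in 3 of the 59 (5.08%), against 9.60% of all. Under DESeq2 the share with GAAGACU was 109 of 169 lower genes with a 3′ UTR (64.5%), in the fit of the 4 libraries 116 of 204 (56.9%), and without T47D-TamR type 2 it was 6 of 14 (42.9%). These sites are matches of letters in the longest annotated 3′ UTR and were not measured as sites of binding.

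Windows of 19 bases around these sites are shown for genes described above, to set beside the siRNA 2 sense strand; capitals mark the 7 bases that pair with the seed.
NDFIP2: caacuuuaauaGAAGACUa
VASP: uggaauuggcuGAAGACUa
ARL1: uccccugaaauGAAGACUa
DRAM2: gauaucaucaaGAAGACUa
ODC1: gcagccauaugGAAGACUa
ACBD5, first site: guuuuccucaaGAAGACUa
ACBD5, second site: uagaccaaaaaGAAGACUa
On GRCh38 the windows lie in the last exon of each gene, at chr13:79552580-79552598 (plus strand) for NDFIP2, chr19:45526256-45526274 (plus) for VASP, chr12:101395606-101395624 (minus) for ARL1, chr1:111117965-111117983 (minus) for DRAM2 and chr2:10440587-10440605 (minus) for ODC1. The ACBD5 sites lie at chr10:27197401-27197419 and chr10:27196320-27196338 (minus). Over the 19 bases the windows shared 13 bases with siRNA 2 at NDFIP2, 10 at VASP, 11 at ARL1, 12 at DRAM2, 11 at ODC1, and 10 and 12 at ACBD5. CMTM8 and C4orf46 held a 7-base site, and TMEM38B, POC1B, PA2G4 and both sites of SLC46A3 an 8-base site.

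TWF1 held 2 seed sites in its 3′ UTR and a longer match in its coding sequence, at chr12:43795624-43795642 (minus strand, exon 9 of 9). The same 19 bases stood in TWF1P1, at chr17:29203462-29203480 (minus strand). In the following line capitals mark the 15 bases shared with the sense strand of siRNA 2.
TWF1 and TWF1P1: aAGagGAAUUcGAAGACUA
This was a longer match than at the seed windows above.

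Some of the higher genes carried the seed site of siRNA 1. Of the 46 higher genes with a 3′ UTR, 15 (32.6%) held AUCCAAG, against 9.60% of the tested genes with a 3′ UTR, and 9 (19.6%) held the 8-base site, against 3.14%. With coding sequence included, 22 of the 46 held it (47.8%), against 20.3%. The share with AUCCAAG in the 3′ UTR was 10 of 76 higher genes (13.2%) without T47D-TamR type 2 and 6 of 10 higher genes without BT483 type 2. The site of siRNA 2 was in 8 of the 46 (17.4%), against 12.3%. In 24 of the 48 higher genes both type 1 libraries lay below control siRNA, and in 45 both type 2 libraries lay above it. These counts describe genes called on type 2 against type 1, and those over all genes are not reported here.

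SERPINH1, the collagen chaperone HSP47, had the smallest adjusted p of the higher genes named. It had 216 CPM with type 2, against 65.4 CPM with type 1 and 130.2 CPM with control siRNA in BT483. In T47D-TamR SERPINH1 had 404 CPM with type 2, against 128 CPM with type 1 and 276 CPM with control siRNA. In each line type 2 stood above and type 1 below control siRNA (log2 fold change 1.69, SE 0.16, adjusted p = 0.00177, edgeR). SOX9, a transcription factor of progenitor cells, had 19.2 CPM with type 2, against 6.58 CPM with type 1 and 8.55 CPM with control siRNA in BT483. In T47D-TamR SOX9 had 26.7 CPM with type 2, against 10.1 CPM with type 1 and 18.0 CPM with control siRNA, type 2 again being highest and type 1 lowest (1.49, SE 0.20, adjusted p = 0.00631, edgeR). OXTR, the oxytocin receptor, had 43.3 CPM with type 2, against 7.62 CPM with type 1 and 16.4 CPM with control siRNA in BT483. In T47D-TamR OXTR was near the limit of detection, at 1.30 CPM with type 2, against 0.845 CPM with type 1 and 1.31 CPM with control siRNA, so its rise (1.91, SE 0.35, adjusted p = 0.0374, edgeR) came mostly from BT483. CEACAM1, a cell adhesion molecule, rose by 1.48 (adjusted p = 0.0425, edgeR), with type 1 above control siRNA in both lines.

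The seed sites of siRNA 1 in these genes are given for comparison with its sense strand; capitals again mark the bases that pair with the seed.
SERPINH1: uguugcuaucaAUCCAAGa
OXTR: acucaaaacgcAUCCAAGa
SOX9: aaacaugaccuAUCCAAGc
CEACAM1: cacuugccaaaAUCCAAGg
They lie in the last exon, at chr11:75572720-75572738 (plus strand) for SERPINH1, chr3:8751529-8751547 (minus) for OXTR, chr17:72124580-72124598 (plus) for SOX9 and chr19:42508421-42508439 (minus) for CEACAM1. Not each gene in which type 1 lay below control siRNA held a site. RBBP7, a histone-binding WD-repeat protein named after its values were seen, held none in its 3′ UTR or coding sequence. It had 128 CPM with type 2, against 62.4 CPM with type 1 and 151 CPM with control siRNA in BT483, and 197 CPM with type 2, against 92.6 CPM with type 1 and 221 CPM with control siRNA in T47D-TamR (1.06, SE 0.15, adjusted p = 0.00748, edgeR).

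Over all tested genes with a 3′ UTR, genes with a seed site were shifted as groups in opposite directions, by small amounts. The called genes are part of these groups, with 45 called lower in the first group below and 13 called higher in the second. Medians without the called genes are not reported here. The 1469 tested genes with a site for siRNA 2 alone in the 3′ UTR had a median log2 fold change of -0.10, and 61.9% of them were negative. The 1072 genes with a site for siRNA 1 alone had a median of 0.090, and 62.2% were positive, while the 11990 genes with neither site had a median of 0.018. With an 8-base site the medians were -0.20 for siRNA 2 (282 genes) and 0.16 for siRNA 1 (344 genes). Genes with a siRNA 2 site in the coding sequence and none in the 3′ UTR had a median of -0.062. The line medians of the siRNA 2 group were -0.12 in BT483 and -0.067 in T47D-TamR, and those of the siRNA 1 group 0.038 in BT483 and 0.14 in T47D-TamR.

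Set against control siRNA, each group was lower in the libraries of its own siRNA. Genes with a siRNA 2 site had medians of -0.11 with type 2 in each line, against 0.014 with type 1 in BT483 and 0.0 with type 1 in T47D-TamR. Genes with a siRNA 1 site had medians of 0.0086 with type 2 and -0.037 with type 1 in BT483, and of 0.054 with type 2 and -0.086 with type 1 in T47D-TamR. Genes with neither site had medians of 0.020 with type 2 and -0.0019 with type 1 in BT483. In T47D-TamR their medians were 0.074 with type 2 and 0.067 with type 1. Both siRNAs shared the control library of their line. Genes with a site had longer 3′ UTRs, with a median of 2657 bases for siRNA 2 and 2892 bases for siRNA 1, against 1009 bases for genes with neither. Their median GC content was 44.76% for siRNA 2 and 45.85% for siRNA 1, against 50.71% for genes with neither. The part of 3′ UTR length or GC content in these shifts was not tested.

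**Figure D3:**
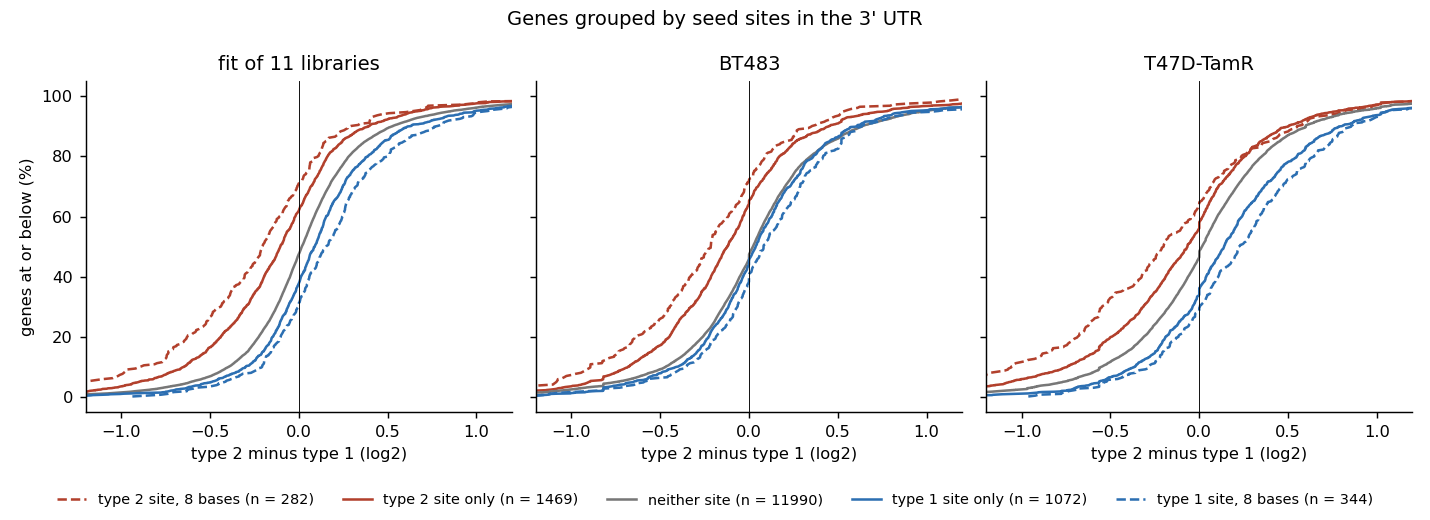
Curves give the percentage of genes at or below each log2 difference, type 2 minus type 1, in the fit of 11 libraries, in BT483 and in T47D-TamR, for genes with a seed site of siRNA 2 (red), of siRNA 1 (blue) or neither (grey) in the 3′ UTR; broken lines are 8-base sites. At the median the red curves lie left of the grey one and the blue curves right of it in each panel, with medians in the fit of -0.20, -0.10, 0.018, 0.090 and 0.16 from the 8-base siRNA 2 group to the 8-base siRNA 1 group.

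Interferon-stimulated genes were higher with type 2 than with type 1. All 39 tested members of this list had a positive log2 fold change, with a median of 1.23 against 0.0085 for all genes tested, 30 had an unadjusted p under 0.05, and 5 were called. In the list, 37 members were higher in both lines, and the median was 1.52 in BT483 and 0.87 in T47D-TamR. Without BT483 type 2 the median was 0.63. The called members were RTP4 (2.47, a Golgi chaperone), DDX60L (1.44, a helicase), PARP9 (1.23), PARP14 (1.00) and UBE2L6 (0.94, the ISG15-conjugating enzyme), with adjusted p-values between 0.0061 and 0.0464 (edgeR). PARP9, PARP14 and UBE2L6 were named after their values were seen. Against control siRNA the list's median was 1.92 with type 2 and 0.66 with type 1 in BT483, and 1.05 with type 2 and 0.21 with type 1 in T47D-TamR. The control siRNA library of T47D-TamR was itself high for this list. Its members summed to 3620 CPM there, against 1325 CPM with DMSO and no siRNA. The cause of this was not tested.

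Values of single members follow, and for none of those in this paragraph did the difference between lines pass its test. DDX60L had 135 CPM under type 2, against 50.3 CPM under type 1 and 36.1 CPM under control siRNA in BT483. In T47D-TamR DDX60L had 58.6 CPM under type 2, against 21.3 CPM under type 1 and 24.3 CPM under control siRNA. IFI44L had 168 CPM with type 2, against 19.2 CPM with type 1 and 6.34 CPM with control siRNA in BT483. In T47D-TamR IFI44L had 50.6 CPM with type 2, against 25.4 CPM with type 1 and 24.3 CPM with control siRNA, and it missed the threshold (2.49, SE 1.03, adjusted p = 0.595, edgeR). CMPK2, a mitochondrial nucleotide kinase, had 10.1 CPM with type 2 and 1.23 CPM with type 1 in BT483 and 18.9 CPM with type 2 and 7.21 CPM with type 1 in T47D-TamR (2.28, adjusted p = 0.299, edgeR). OAS2 and XAF1, which each held a 7-base siRNA 1 site, had log2 fold changes of 2.12 and 2.00 (adjusted p = 0.552 and 0.0677, edgeR). OAS2 had 332 CPM with type 2, against 60.9 CPM with type 1 and 25.6 CPM with control siRNA in BT483, and XAF1 had 30.7 CPM with type 2, against 6.26 CPM with type 1 and 3.40 CPM with control siRNA there. In T47D-TamR OAS2 had 184 CPM with type 1 and 168 CPM with control siRNA, and XAF1 had 10.3 CPM with type 1 and 10.4 CPM with control siRNA.

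Outside that list, the 15 highest called genes included BATF2, TRIM22 and APOL6. BATF2, a basic leucine zipper factor, had 6.77 CPM with type 2, against 0.904 CPM with type 1 and 1.53 CPM with control siRNA in BT483. In T47D-TamR BATF2 had 8.94 CPM with type 2, against 1.73 CPM with type 1 and 1.47 CPM with control siRNA (2.61, SE 0.41, adjusted p = 0.0123, edgeR). TRIM22, an antiviral ubiquitin ligase, had 11.5 CPM with type 2, against 2.13 CPM with type 1 and 1.25 CPM with control siRNA in BT483. In T47D-TamR TRIM22 had 9.16 CPM with type 2, against 1.81 CPM with type 1 and 1.51 CPM with control siRNA (2.40, SE 0.33, adjusted p = 0.00631, edgeR). For both genes each type 2 library lay above all type 1 and control siRNA libraries shown. APOL6 rose by 1.44 (adjusted p = 0.0418, edgeR).

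Genes of RNA sensing and interferon signalling had a median log2 fold change of 0.52, with 27 of 30 positive and 1 called. The called gene was STAT2, a subunit of the factor that turns on interferon-stimulated genes, named after its values were seen. STAT2 had 291 CPM with type 2, against 158 CPM with type 1 and 128 CPM with control siRNA in BT483, and 282 CPM with type 2, against 161 CPM with type 1 and 146 CPM with control siRNA in T47D-TamR (0.85, SE 0.14, adjusted p = 0.0143, edgeR). The interferon transcripts named by the rule were low. In BT483 IFNL1 had 55 counts with type 2 and 7 with type 1, and IFNL3 had 18 and 0. IFNL1 had 2.01 CPM with type 2, against 0.452 CPM with type 1 and 0.113 CPM with control siRNA in BT483, and 1.04 CPM with type 2, against 0.725 CPM with type 1 and 0.872 CPM with control siRNA in T47D-TamR. IFNL3 had 0.659 CPM with type 2 and 0 with type 1 in BT483, and 0.912 CPM with type 2 and 0.564 CPM with type 1 in T47D-TamR. The sensor TLR3 had 3.77 CPM with type 2 and 1.36 CPM with type 1 in BT483, and ZBP1 had 0.659 CPM with type 2 and 0.0645 CPM with type 1 there. None of these 4 low genes passed the test (adjusted p between 0.331 and 0.74, edgeR).

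MHC class I genes had a median of 0.61, with 18 of 22 positive and 2 called. The median was 0.96 in BT483 and 0.26 in T47D-TamR, and it was 0.22 without BT483 type 2 and 0.95 without T47D-TamR type 2. NLRC5, the transactivator of class I genes, had 54.6 CPM with type 2, against 19.5 CPM with type 1 and 13.6 CPM with control siRNA in BT483, and 15.2 CPM with type 2, against 4.91 CPM with type 1 and 4.96 CPM with control siRNA in T47D-TamR (1.54, SE 0.23, adjusted p = 0.0101, edgeR). HLA-G (1.27), B2M (1.24) and HLA-F (1.22) did not pass (adjusted p = 0.148, 0.568 and 0.0908, edgeR). B2M, the light chain of class I molecules, had 828 CPM with type 2, against 217 CPM with type 1 and 169 CPM with control siRNA in BT483, and 481 CPM with type 2, against 398 CPM with type 1 and 383 CPM with control siRNA in T47D-TamR. Reads of HLA genes can be split among near-identical paralogs. Of the 4 guanylate-binding proteins tested, GBP4 rose (2.15, SE 0.33, adjusted p = 0.011, edgeR), while GBP1 (1.15), GBP2 (0.76) and GBP3 (0.12) missed the threshold, and GBP3 was lower with type 2 than with type 1 in BT483. The leukocyte markers given above summed to 0.292 CPM with type 2 and 0.193 CPM with type 1 in BT483, and to 0.521 CPM with type 2 and 0.161 CPM with type 1 in T47D-TamR. In bulk RNA, fewer cells of a kind and less RNA per cell cannot be told apart.

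**Figure D4:**
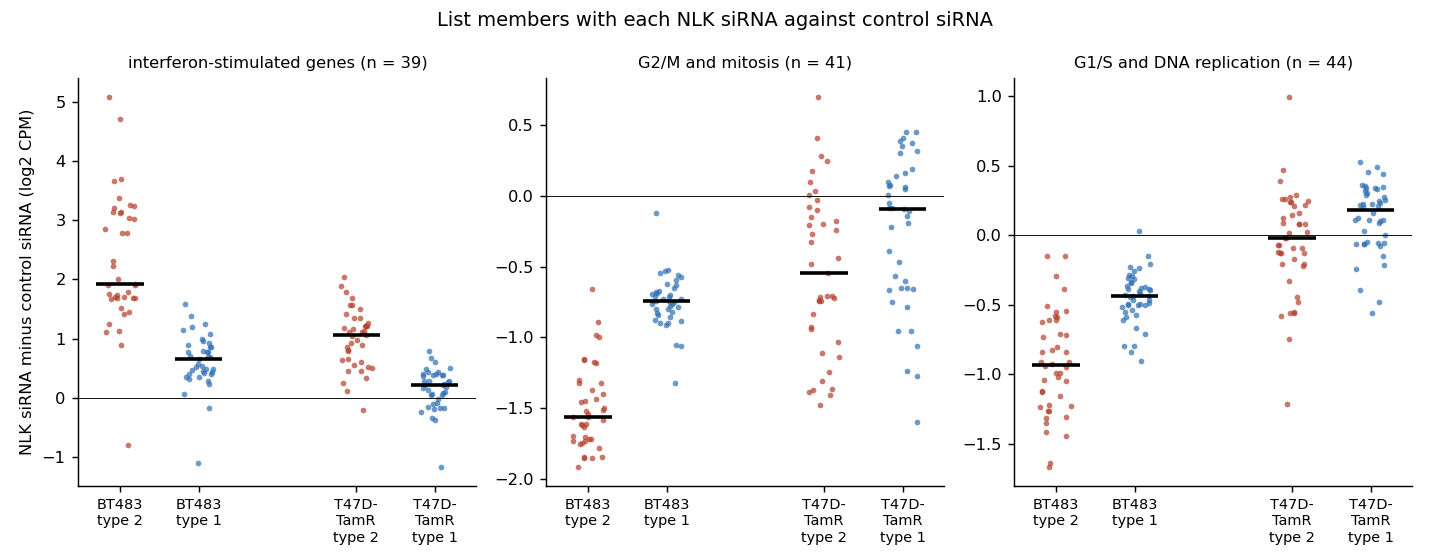
Points are members of 3 gene lists, placed by their log2 CPM difference from control siRNA of the same line with type 2 (red) and type 1 (blue), and bars are medians. The interferon medians are 1.92 and 0.66 in BT483 and 1.05 and 0.21 in T47D-TamR for type 2 and type 1, and the G2/M medians are -1.56 and -0.74 in BT483 and -0.54 and -0.09 in T47D-TamR.

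No cell-cycle gene of the lists was called. Of 41 tested genes of G2/M and mitosis, 40 had a negative log2 fold change, with a median of -0.54 (-0.79 in BT483 and -0.28 in T47D-TamR), and edgeR called 0 of them, with 1 at an unadjusted p under 0.05, against 2191 of 24023 over all genes. In 32 of the 41 both lines were lower with type 2. CDK1, the mitotic kinase, had 25.0 CPM with type 2, against 51.4 CPM with type 1 and 86.0 CPM with control siRNA in BT483, and 69.5 CPM with type 2, against 104 CPM with type 1 and 114 CPM with control siRNA in T47D-TamR (-0.81, adjusted p = 0.837, edgeR). The order type 2, type 1, control siRNA from low to high was shared by both lines for CDK1, and its SE of 0.68 was close to the difference. The fit had a shared tamoxifen term, so a response to tamoxifen that differed between the lines entered the spread. With control siRNA and tamoxifen CDK1 had 12.7 CPM in BT483 and 86.4 CPM in T47D-TamR. A missing call therefore does not show that the siRNAs were alike. BUB1B, a spindle checkpoint kinase (-0.88), PRC1, an organizer of the central spindle (-0.90), and CDC20, an activator of the anaphase-promoting complex (-0.79), did not pass either (adjusted p between 0.516 and 0.892, edgeR).

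Of 44 genes of G1/S and DNA replication, 40 were negative, with a median of -0.30 (-0.45 in BT483 and -0.19 in T47D-TamR), and edgeR called 0, with 1 of the 44 at an unadjusted p under 0.05. RRM1, the large subunit of ribonucleotide reductase, had 39.3 CPM with type 2, against 73.8 CPM with type 1 and 97.1 CPM with control siRNA in BT483, and 66.3 CPM with type 2, against 114 CPM with type 1 and 111 CPM with control siRNA in T47D-TamR (-0.84, SE 0.28, adjusted p = 0.355, edgeR). RRM1 held a 7-base siRNA 2 site in its 3′ UTR. CDC6, which loads the replicative helicase (-0.76), and ORC6 (-0.63) did not pass, and CDCA7 (-0.71) had 0 counts in both T47D-TamR libraries. Against control siRNA the G1/S median was -0.93 with type 2 and -0.44 with type 1 in BT483, and -0.02 with type 2 and 0.18 with type 1 in T47D-TamR. Replication-dependent histones had a median of 0.27 with 31 of 42 positive and 0 called (9 at an unadjusted p under 0.05). Their members with the largest fitted changes, HIST1H2BB, HIST2H2AB, HIST1H3F and HIST1H4A, had at most 0.581 CPM in these 4 libraries.

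Estrogen receptor targets showed no shared direction. Their median was 0.13 with 27 of 41 positive, 0.23 in BT483 and -0.07 in T47D-TamR, and 0 were called (10 at an unadjusted p under 0.05). PGR, the progesterone receptor, had 29.3 CPM with type 2, against 12.1 CPM with type 1 and 12.1 CPM with control siRNA in BT483, and 0.868 CPM with type 2, against 0.523 CPM with type 1 and 0.674 CPM with control siRNA in T47D-TamR (1.12, SE 0.34, adjusted p = 0.217, edgeR). GREB1 (0.07) and TFF1 (0.62) were near 0 in T47D-TamR, so that their values rest on BT483, where TFF1 had 712 CPM with type 2, 469 CPM with type 1 and 680 CPM with control siRNA. ESR1, the estrogen receptor, stood at 0.45 (SE 0.15, adjusted p = 0.315, edgeR), with 144 CPM with type 2 and 121 CPM with type 1 in BT483 and 32.5 CPM with type 2 and 20.7 CPM with type 1 in T47D-TamR. MAPK14 had -0.19, MYC -0.22 and CCND1 -0.02, with adjusted p-values of 0.746, 0.954 and 0.993 (edgeR). Luminal transcription factors had a median of 0.21 with 14 of 16 positive and 0 called (3 at an unadjusted p under 0.05). Their median was -0.013 in BT483 (7 positive, 8 negative) and 0.32 in T47D-TamR (15 positive). TFAP2B, at 0.74, had 0 counts in both BT483 libraries, so its value rests on T47D-TamR.

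The NLK and p38 pathway list had a median of 0.06 (19 of 33 positive, 0 called, 2 at an unadjusted p under 0.05), with the phosphatase DUSP16 at 0.52 (adjusted p = 0.125, edgeR). Wnt targets had a median of 0.32 (14 of 18 positive) and Notch targets of 0.20 (14 of 18 positive), with 0 called in either (2 and 1 at an unadjusted p under 0.05). CD44, a hyaluronan receptor, had 0.75 (adjusted p = 0.109, edgeR), and the Wnt feedback gene NKD1 had 0.68. DKK1, a secreted Wnt antagonist, had 1.83 CPM with type 2 and 2.13 CPM with type 1 in BT483, against 2.78 CPM with type 2 and 0.604 CPM with type 1 in T47D-TamR. HEY1, a Notch target, had 2.41 CPM with type 2 and 11.5 CPM with type 1 in BT483 and was at or below 0.174 CPM in T47D-TamR. WNT11, a Wnt ligand outside these lists, was called. It had 21.6 CPM with type 2, against 5.94 CPM with type 1 and 6.51 CPM with control siRNA in BT483, and 3.78 CPM with type 2, against 0.926 CPM with type 1 and 0.952 CPM with control siRNA in T47D-TamR (1.96, SE 0.31, adjusted p = 0.0131, edgeR).

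The remaining called genes among the 15 highest had varied roles. CHST1, a carbohydrate sulfotransferase, rose by 1.80, and ARID5A, an RNA-binding protein that stabilizes cytokine mRNAs, rose by 1.80. MMP16, a membrane-bound metalloproteinase, rose by 1.65. CAPN8, a calpain protease, was called at 117 CPM with type 2 and 32.9 CPM with type 1 in BT483, and 9.29 CPM with type 2 and 4.43 CPM with type 1 in T47D-TamR. CHST1 had 9.84 CPM with type 2, against 3.10 CPM with type 1 and 5.21 CPM with control siRNA in BT483, and 13.2 CPM with type 2, against 3.50 CPM with type 1 and 5.99 CPM with control siRNA in T47D-TamR. Of these 4 genes, ARID5A had type 1 above control siRNA in both lines, while CHST1, MMP16 and CAPN8 had type 1 below it in both.

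Among the other lists, 3 held a called gene. Lysosome and autophagy genes had a median of 0.14, and GPNMB, a glycoprotein of lysosomes, rose by 1.21 (adjusted p = 0.011, edgeR), to 25.6 CPM with type 2 against 8.58 CPM with type 1 in BT483 and 81.2 against 44.9 CPM in T47D-TamR. Basal identity genes had a median of 0.30 with SOX9 called, and 15 of 21 were positive and 6 negative. Their median was 0.28 in BT483 and 0.12 in T47D-TamR, with 11 members higher and 3 lower in both lines. KRT17, a basal keratin, had 10.4 CPM with type 2, against 2.58 CPM with type 1 in BT483 and 68.7 CPM with type 2, against 52.2 CPM with type 1 in T47D-TamR (1.05, adjusted p = 0.26, edgeR). Ribosome biogenesis genes had a median of -0.11 with 22 of 26 negative, and RRP1B, a nucleolar protein with an 8-base siRNA 2 site, fell by 1.01 (adjusted p = 0.0341, edgeR). FBL, the methyltransferase fibrillarin, had -0.41 (adjusted p = 0.44, edgeR).

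The lists that follow held 0 called genes, with between 0 and 7 members of each at an unadjusted p under 0.05 (edgeR). NF-κB targets and cytokines had a median of 0.26 (18 of 23 positive), with 12 positive and 11 negative in BT483, and the median was -0.096 without T47D-TamR type 2. ERK feedback genes had a median of 0.21 (16 of 23), which was 0.010 without T47D-TamR type 2, and p53 targets 0.13 (20 of 29). The unfolded protein response stood at 0.09 (15 of 20), ATF4 amino acid stress genes at 0.06 (21 of 34), cholesterol synthesis at 0.05 (14 of 24), fatty acid synthesis at -0.01 (7 of 15) and hypoxia and glycolysis at -0.01 (14 of 29). The microRNA and RISC machinery, through which siRNAs act, had a median of -0.00070 with 9 of 18 positive, AGO4 at 0.38 and CNOT7 at -0.32. Mesenchymal and fibroblast markers had a median of 0.05 (12 of 21 positive), and leukocyte and endothelial markers of 0.28 over the 9 of 20 that were tested. These 9 had a median of -0.23 in BT483 (3 positive, 5 negative) and of 0.30 in T47D-TamR (7 positive, 1 negative). They summed to at most 8.94 CPM in these 4 libraries, and their median ran from -0.49 to 0.97 over the left-out libraries. SLC7A5, a leucine transporter of the ATF4 list, had 169 CPM with type 2, against 275 CPM with type 1 in BT483, and 816 CPM with type 2, against 1751 CPM with type 1 in T47D-TamR (-0.90, adjusted p = 0.625, edgeR).

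For the nuclear genes of oxidative phosphorylation the median differed in sign between the lines, with 1 library against 1 in each. These 32 genes had a median of 0.23 in BT483 (25 positive) and of -0.40 in T47D-TamR (30 negative), and 0 were called (1 at an unadjusted p under 0.05). NDUFB8, a complex I subunit, had 14.2 CPM with type 2, against 7.75 CPM with type 1 in BT483, and 20.9 CPM with type 2, against 56.0 CPM with type 1 in T47D-TamR. The 13 mitochondrially encoded genes had medians of -0.18 in BT483 and -0.19 in T47D-TamR, with 0 called and 0 at an unadjusted p under 0.05. MT-ND3 had 2980 CPM with type 2 and 1725 CPM with type 1 in BT483, and 1265 CPM with type 2 and 3286 CPM with type 1 in T47D-TamR, while MT-CYB was lower with type 2 in both lines (-0.27, adjusted p = 0.667, edgeR). The difference between lines was tested for single genes, as follows.

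**Figure D5:**
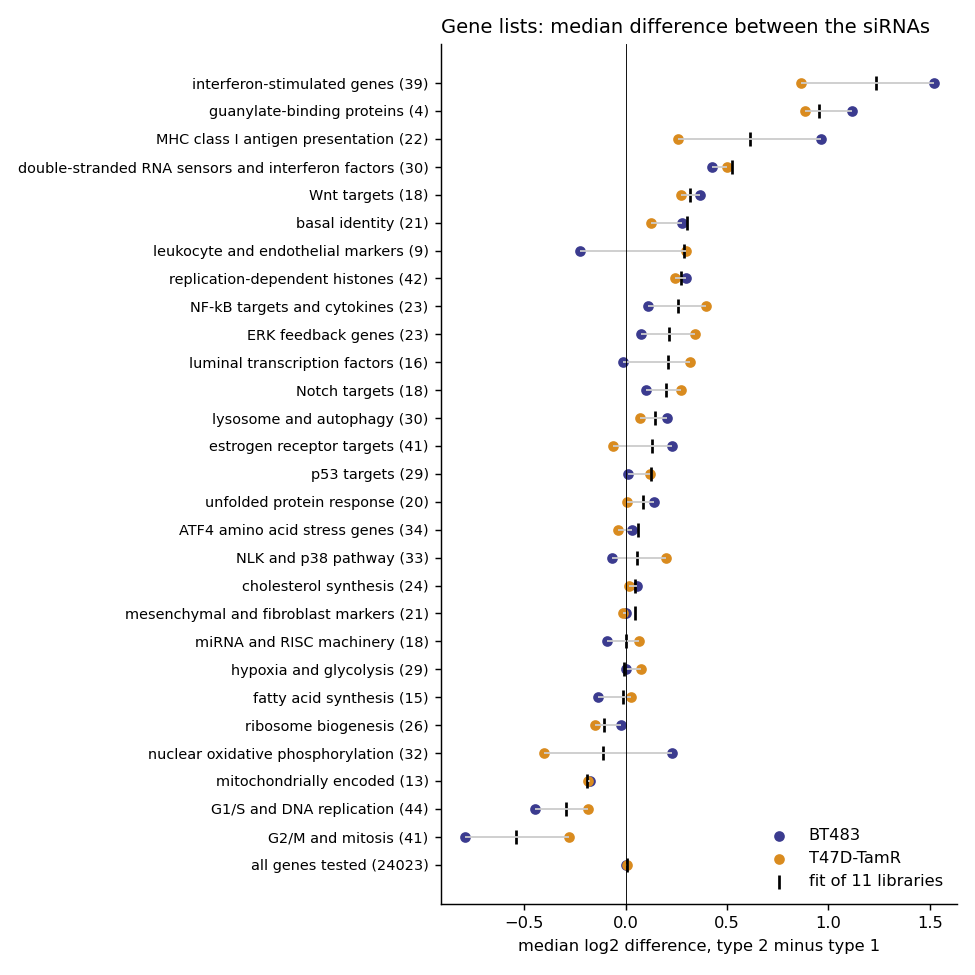
Points are the median log2 difference, type 2 minus type 1, of each gene list in BT483 and T47D-TamR, and black marks the median in the fit of 11 libraries; the number of genes tested stands in brackets. The interferon list is highest at 1.23, G2/M and mitosis lowest at -0.54, and the lines have opposite signs for nuclear oxidative phosphorylation genes (0.23 in BT483, -0.40 in T47D-TamR).

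Whether the siRNA difference itself depended on the line was asked with a fit that allowed it to differ. One of 24023 genes passed (0.00416%), IFI27, an interferon-stimulated gene, and 1287 had an unadjusted p under 0.05. In BT483 IFI27 had 62.1 CPM with type 2, against 3.81 CPM with type 1 and 1.76 CPM with control siRNA. In T47D-TamR IFI27 had 522 CPM with type 2, against 497 CPM with type 1 and 382 CPM with control siRNA. The siRNA difference was thus larger in BT483, by 3.95 on the log2 scale (SE 0.32, adjusted p = 0.0141, edgeR). The spread in this fit came only from how the pairs with and without tamoxifen differed from each other. The SE and p therefore hold no variation between cultures with the same NLK siRNA. IFI27 lost this call with genes limited to at least 10 counts in every library and with limma, and 803 genes were called without the BT483 control siRNA library and 794 without BT483 control siRNA with tamoxifen.

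The next genes by p did not pass. RN7SL1, an RNA of the signal recognition particle, had 395 CPM with type 2, against 61.9 CPM with type 1 and 282 CPM with control siRNA in BT483, and 341 CPM with type 2, against 521 CPM with type 1 and 738 CPM with control siRNA in T47D-TamR. Its line difference was 3.29 (SE 0.35, adjusted p = 0.0624, edgeR), and RN7SL5P, a near-identical copy, had 4.03 (adjusted p = 0.175, edgeR). The BT483 type 1 library stood lowest, and its share of counts in 680 genes of this family was 0.0119%, against 0.0512% with type 2 and 0.0382% with control siRNA in BT483. SNCG, gamma-synuclein, had 1.98 (adjusted p = 0.306, edgeR). In the opposite direction OLFML2A (-2.43), TNS3 (-1.68), SSPO (-1.83) and TNFSF15 (-2.52) had adjusted p-values between 0.474 and 0.51 (edgeR), and OLFML2A had 14.6 CPM with type 2 and 28.7 CPM with type 1 in BT483, against 5.43 CPM with type 2 and 1.97 CPM with type 1 in T47D-TamR.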

How the data were processed

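Messenger RNA was sequenced from 11 libraries made with a stranded kit, per the labels. Raw counts per gene symbol, named as featureCounts output, were deposited by the authors. The build was GRCh38, per the submitters' processing notes. For aligner and counting settings the sources give nothing. The authors also deposited a series table of log2 TPM values whose distributions nearly coincide (sorted values within 0.108), used for 1 alternative; 27 of its gene names were not in the counts. All columns were matched by name, and 0 were left unmapped. The members and gene lists were chosen with earlier results of these data known.

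Counts were fitted in edgeR 4.0.16 (R 4.3.3) with TMM scaling, filterByExpr, robust quasi-likelihood dispersion and Benjamini-Hochberg adjustment over 24023 genes, 2-sided. The fit of 11 libraries had a context block (BT483, T47D-TamR with siRNA, T47D-TamR without siRNA) and terms for type 1, type 2, tamoxifen and VX-702, with 4 residual degrees of freedom and a biological coefficient of variation of 0.162. Tamoxifen had a shared term over the lines, so a response to it that differed between lines entered the spread. The fit of the line difference had 2 residual degrees of freedom. Its spread came only from how the pairs with and without tamoxifen differed from each other. Depth ran from 14637083 to 26915863 counts. P-values measure the spread between these samples only, and where 1 library stands alone it is taken to vary as the rest do. Reads carried no molecular identifiers, so intervals (exact, 95%) and floors (3 counts) cover counting error only. CPM values are TMM-scaled. Log2 differences within a line used a prior count of 2.

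Sites were searched on the mRNA strand in the longest 3′ UTR of a protein-coding transcript per gene (GENCODE 29; 56703 of 59087 names matched). Sequence windows come from the same transcripts. There were 28 lists; OAS1 and KIF23 of these were not analysed here. Values of some list members are not reported here.

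Genes were named by a rule: NLK; called genes with a symbol, a mean log2 CPM of 1 or more and like direction in each line, the 15 highest and 15 lowest; 2 to 4 members per list by absolute change (4 where a member was called or the median passed 0.25); 5 genes per seed site set; 4 genes each way for the line difference; and ESR1, GREB1, PGR, TFF1, CCND1, MYC and MAPK14. List members at or below the floor get no fold change in the report. DESeq2 1.42.0 and limma 3.58.1, other scalings and filters, other sets of libraries, a fit without the block, offsets for transcript length and GC content, and leaving out each library were tried as alternatives. The fits were checked on simulated counts.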

Additional observations from a re-analysis of the deposited data

Results flagged for a closer look

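IFI27 was singled out because its siRNA difference differed between the lines in a test of that difference. That test took its spread from the pairs with and without tamoxifen alone. BT483 minus T47D-TamR was 3.95 on the log2 scale (adjusted p = 0.0141, edgeR). In BT483 IFI27 had 62.1 CPM with type 2 and 3.81 CPM with type 1, and in T47D-TamR 522 CPM with type 2 and 497 CPM with type 1. The level with control siRNA was 382 CPM in T47D-TamR, against 1.76 CPM in BT483. In T47D-TamR without siRNA, IFI27 had 67.1 CPM with DMSO, 97.0 CPM with VX-702 and 76.2 CPM with DMSO and tamoxifen.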

How the results depend on the processing

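The 33 called genes named by the rule kept their direction in each alternative that tested them (30 were tested with a minimum of 10 counts per library). Of these 33, 22 were still called in the 8 siRNA libraries, 28 with DESeq2, 21 with a minimum of 10 counts per library, 16 without BT483 type 2, 19 without T47D-TamR type 2, and 0 with limma, with no replicate block or without either type 1 library. Counts of calls did not hold, and are given as higher and lower with type 2 against 48 and 65. They were 256 and 230 in the 4 NLK siRNA libraries (48 and 65 shared), 15 and 22 in the 8 siRNA libraries, 157 and 188 with DESeq2, 19 and 31 with a minimum of 10 counts per library, 109 and 144 with length and GC offsets, 168 and 171 with no filter, and 0 and 0 with limma. The labels pair libraries by line alone; with no replicate block, so without the line term, the counts were 0 and 0 (109 and 100 at an unadjusted p under 0.05). Leaving out 1 library gave 0 to 194 and 0 to 212, the highest without BT483 control siRNA with tamoxifen; without BT483 control siRNA they were 78 and 120, without T47D-TamR control siRNA 24 and 43, without DMSO 22 and 37, and without DMSO with tamoxifen 16 and 30. The line difference gave 26 genes with DESeq2, 61 with no filter, 0 with a minimum of 10 counts per library, 0 with limma (897 and 1539 at an unadjusted p under 0.05), and 1 to 803 on leaving out a library. The cause of these changes was not tested. The siRNA 2 site median was -0.20 for 8-base and -0.062 for coding sites. With an average of at least 1 CPM, genes past 2-fold higher and lower were 459 and 290 in BT483 and 253 and 398 in T47D-TamR.

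Signs turned for genes that were not called, mostly when 1 NLK siRNA library was left out. Lowest and highest log2 fold changes over the left-out libraries were -0.81 and 0.37 for NLK, -2.13 and 0.65 for GREB1 (-0.21 with DESeq2), -0.42 and 4.39 for TFF1, -0.49 and 0.14 for MYC, -0.19 and 0.14 for CCND1, -0.12 and 4.34 for IFI27, -2.03 and 1.66 for CDCA7, -2.35 and 0.84 for HEY1, and -0.19 and 1.83 for TWIST1. They were -0.14 and 0.58 for GBP3 (-0.18 with no replicate block), -0.060 and 1.96 for DKK1, -1.06 and 0.48 for MT-ND3, -1.07 and 0.59 for NDUFB8, -1.16 and 1.03 for CLDN5, and -1.64 and 1.52 for ITGAM. The fitted values of CA9, which was at or below the floor of 3 counts in the NLK siRNA libraries and has no interpretable fold, were -0.33 and 4.36. Over the alternatives the interferon median ran from 0.63 to 1.78 and the G2/M median from -0.79 to -0.31. The median turned its sign over the left-out libraries for NF-κB targets (-0.096 to 0.44), estrogen receptor targets (-0.20 to 0.31) and nuclear oxidative phosphorylation (-0.35 to 0.11), among others. Depth limits genes under about 1 CPM, where a difference of a few counts sets the fold.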
